A study of Mus musculus with 10 samples.

Results

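The follistatins and other extracellular myostatin inhibitors described here are Fst, Fstl1, Fstl3, Wfikkn1 and Wfikkn2. They were taken as every probe set annotated to one of these symbols and to no other gene. That gave 7 of the 45101 probe sets on the array, of which 4 probe sets, for 3 of the 5 genes, were bright enough to be tested. The arrays measured RNA of the gastrocnemius, a calf muscle, in 10 male C57BL/6-background mice aged 7.5 months. The 5 Floxed_Mstn mice had myostatin genes (Mstn) flanked by recombination sites and are labelled as Mstn knockouts. The 5 WT_Mstn mice had normal myostatin genes and are the controls. All mice of both groups carried the CAGG-CreER transgene and were given 8 tamoxifen injections from 4 months of age. Tamoxifen switches on this Cre recombinase. CAGG is a promoter active in most cell types, so the transgene is not specific to muscle fibres, and where recombination took place was not measured here. The comparison asks how adult muscle differs once myostatin is removed after development.

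Myostatin is made by muscle fibres, is secreted as a latent precursor and restrains muscle growth through activin type II receptors and the transducers Smad2 and Smad3. Follistatin, the product of Fst, wraps around myostatin and activins and keeps them from their receptors, and Fstl3 encodes a close relative that binds the same ligands. Wfikkn2 and Wfikkn1 encode GASP-1 and GASP-2, multidomain secreted proteins that bind myostatin and its propeptide with more ligand selectivity than follistatin. Fstl1 encodes a secreted glycoprotein with a follistatin-like module that was first cloned as a TGF-beta-inducible transcript and is made in much connective tissue. It is less well established as a myostatin inhibitor than the other members.

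The RefSeq promoter table (GRCm38.p6) held 4 of the 5 member genes. Fst was not matched. The 250 bases before the annotated start are printed for Fstl1, which had lower values on both of its probe sets in Floxed_Mstn muscle, and for Fstl3, which lay near the array's floor in both groups. Capitals mark CAGAC or its reverse complement GTCTG, the core of the Smad-binding element, and CANNTG, the E-box bound by myogenic factors. The Fstl1 window is chr16:37776805-37777054 and the Fstl3 window chr10:79777024-79777273, both on the plus strand.
Fstl1: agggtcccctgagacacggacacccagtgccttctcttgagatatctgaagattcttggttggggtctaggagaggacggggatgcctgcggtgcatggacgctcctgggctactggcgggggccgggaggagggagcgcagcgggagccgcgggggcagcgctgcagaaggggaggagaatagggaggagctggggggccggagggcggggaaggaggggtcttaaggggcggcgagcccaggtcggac
Fstl3: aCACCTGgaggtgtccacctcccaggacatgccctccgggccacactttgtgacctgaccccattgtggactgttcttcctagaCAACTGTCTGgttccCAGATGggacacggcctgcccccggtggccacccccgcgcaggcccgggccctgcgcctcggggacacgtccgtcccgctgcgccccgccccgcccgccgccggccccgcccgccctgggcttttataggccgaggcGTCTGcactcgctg
The Fstl1 window held neither motif. The Fstl3 window held 2 Smad-binding cores and 3 E-boxes, and 1 core overlapped 1 E-box. In the same windows Wfikkn1 had 1 core and 5 E-boxes, and Wfikkn2 had 0 cores and 4 E-boxes. Of the 32851 windows in the table, 42.2% held the Smad-binding core on either strand, 66.2% held an E-box and 19.9% held neither. A match describes these letters only and is not a measured binding site.

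No member passed the test after adjustment over all probe sets. The main probe set of Fst and the main probe set of Fstl1 had lower values in Floxed_Mstn muscle, by about a factor of 1.54 for Fst and 1.43 for Fstl1. Wfikkn2 overlapped between the groups, and Fstl3 and Wfikkn1 were too dim to compare. Values are log2 of the intensity that the authors made with GCRMA, a probe-sequence-based background correction with normalization between arrays. A probe set was tested, with limma, if its log2 intensity averaged at least 4 on the 10 arrays, and a Benjamini-Hochberg adjusted p under 0.05 was taken as a call. Differences are Floxed_Mstn minus WT_Mstn on the log2 scale. Levels are not set against each other between probe sets, because each has its own probes.

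Of the 4 member probe sets tested, 0 were called, against 0.0993% of all 21154 probe sets (21 called). At an unadjusted limma p under 0.05, 3 of the 4 were lower in Floxed_Mstn, against 4.09% of all probe sets in that direction. Both Fstl1 probe sets are among these 3. By the brightest probe set of each gene, 2 of 3 genes were lower, against 5.02% of all genes. The members were chosen with earlier results of these data known, so these counts are descriptions. Myostatin itself was not analysed here, since no probe set carries the name Mstn in the annotation used, and the genotype labels are therefore taken as given.

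Fst, encoding the broadest of these ligand traps, was read by 2 probe sets. The brighter, 1434458_at, had log2 intensities of 8.37, 7.74, 7.82, 8.29 and 8.21 in Floxed_Mstn mice 1 to 5, against 8.45, 8.54, 9.07, 8.62 and 8.88 in WT_Mstn mice 1 to 5. Every Floxed_Mstn array lay below every WT_Mstn array, although Floxed_Mstn 1 and WT_Mstn 1 were close. Groups that did not overlap, with Floxed_Mstn lower, were seen for 0.893% of all probe sets tested. The mean log2 intensity was 8.09 ± 0.29 in Floxed_Mstn muscle and 8.71 ± 0.26 in WT_Mstn muscle (SD, n = 5 each). The difference was -0.62 ± 0.16 (SE), with a 95% interval from -0.99 to -0.26. It did not pass, with a limma p of 0.00346 and an adjusted p of 0.342. Over all assignments of the 10 arrays to groups of 5 the exact permutation p was 0.00794 (two-sided, unadjusted), the smallest this design can give.

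The other Fst probe set, 1421365_at, lay under the filter and was not tested. Its log2 intensity ran from 2.71 to 3.75 in Floxed_Mstn muscle and from 2.75 to 3.54 in WT_Mstn muscle. The groups overlapped near the floor of the arrays, whose lowest log2 intensity was between 1.83 and 1.92. Every statement on Fst therefore rests on 1 probe set. With the mean of both probe sets the Fst difference was -0.31 (limma, adjusted p = 0.673).

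Fstl1, encoding the follistatin-like glycoprotein, had 2 probe sets past the filter. The brighter, 1448259_at, had log2 intensities of 10.29, 10.22, 9.98, 10.13 and 10.65 in Floxed_Mstn mice 1 to 5, against 10.96, 10.61, 10.89, 10.58 and 10.81 in WT_Mstn mice 1 to 5. Floxed_Mstn 5 lay above WT_Mstn 2 and 4, and the other 4 Floxed_Mstn arrays lay below every control. The mean log2 intensity was 10.25 ± 0.25 in Floxed_Mstn muscle and 10.77 ± 0.17 in WT_Mstn muscle (SD, n = 5 each). The difference of -0.52 ± 0.13 (SE, 95% interval -0.81 to -0.23) did not pass, with a limma p of 0.00282 and an adjusted p of 0.319. The exact permutation p was 0.0238 (two-sided, unadjusted).

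The dimmer Fstl1 probe set, 1416221_at, had log2 intensities of 9.24, 8.57, 8.24, 8.94 and 9.39 in Floxed_Mstn mice, against 9.69, 9.12, 9.37, 9.17 and 9.46 in WT_Mstn mice. The groups overlapped, with Floxed_Mstn 1 and 5 inside the range of the controls. Its difference was -0.49 ± 0.22 (SE, limma adjusted p = 0.645), close in size to that of the brighter one. The unadjusted limma p was 0.0483 and the exact permutation p 0.0873 (two-sided, unadjusted). Both probe sets placed Floxed_Mstn 3 lowest and WT_Mstn 1 highest. The 2 probe sets read the same RNA and are not independent evidence.

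Wfikkn2, encoding GASP-1, had log2 intensities of 5.98, 6.64, 5.73, 6.12 and 6.78 in Floxed_Mstn mice 1 to 5, against 6.64, 6.85, 5.83, 5.82 and 6.62 in WT_Mstn mice 1 to 5. The arrays spread over about the same range in both groups. The mean log2 intensity was 6.25 ± 0.45 in Floxed_Mstn muscle and 6.35 ± 0.49 in WT_Mstn muscle (SD, n = 5 each). The difference was -0.10 ± 0.27 (SE, limma adjusted p = 0.985), with a 95% interval from -0.71 to 0.50. That interval still holds the differences measured for Fst and Fstl1, so Wfikkn2 is not shown to differ from them.

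Fstl3, encoding the close follistatin relative, was near the floor. Its log2 intensities were 2.66, 2.65, 2.71, 2.65 and 3.20 in Floxed_Mstn mice, against 2.65, 2.65, 2.26, 2.76 and 2.23 in WT_Mstn mice. Values this low have no dependable order, and the adjusted p was 0.969 in a limma fit without the filter. Wfikkn1, encoding GASP-2, ran from 2.24 to 2.26 in Floxed_Mstn muscle and from 2.24 to 2.59 in WT_Mstn muscle, likewise near the floor (limma adjusted p of 0.969 without the filter). For these genes a difference was not detectable at this signal, and no fold change is given.

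**Figure D1:**
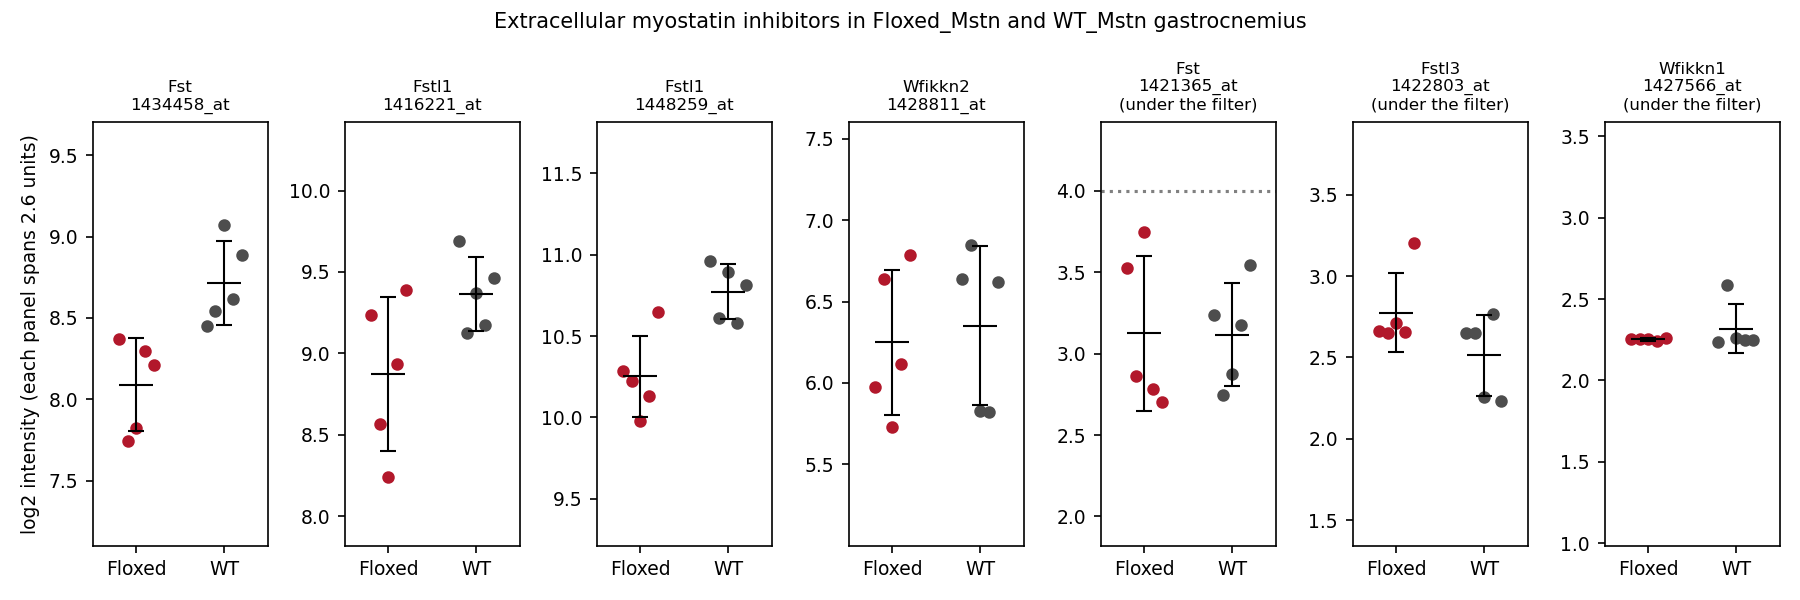
Log2 intensity (y axis) of the 7 member probe sets on each array, Floxed_Mstn in red and WT_Mstn in grey, with mean and SD (n = 5 each) and every panel spanning the same range. The Fst probe set 1434458_at is parted between the groups, the Fstl1 probe sets are lower in Floxed_Mstn with some overlap, Wfikkn2 overlaps, and 3 probe sets lie under the filter at 4 (dotted line where it falls inside the panel).

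Fst and Fstl1 were compared across the 10 arrays, as part of 6 relations among the tested members and the hybridisation controls. The hybridisation controls are 7 probe sets for bacterial RNA added to each array. Across all 10 arrays Pearson's r between Fst and Fstl1 was 0.76 and Spearman's rho was 0.67, with permutation p values of 0.0104 and 0.0386, or 0.0313 and 0.116 adjusted over the 6 relations. Without Floxed_Mstn 2 and WT_Mstn 3, the arrays farthest from the median of Fst, r was 0.71. This pooled relation contains the offset between the groups: once each group's mean was removed, r was 0.35 and rho 0.35. Within groups, then, the arrays low for Fst were only loosely those low for Fstl1. Floxed_Mstn 3, for example, lay below its group mean for both genes. WT_Mstn 1 was the lowest control for Fst (log2 intensity 8.45) and the highest for Fstl1 (10.96).

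Wfikkn2 varied from array to array with the hybridisation controls. Its Pearson's r with them was -0.83 and its Spearman's rho -0.90, with permutation p values of 0.00201 and 0.00067, or 0.0121 and 0.00402 adjusted over the 6 relations. Without Floxed_Mstn 3 and 1, the arrays farthest from the controls' median, r was -0.76, and with group means removed it was -0.83. The controls averaged 13.15 ± 0.25 in Floxed_Mstn and 13.12 ± 0.14 in WT_Mstn (log2 intensity, SD, n = 5 each, exact permutation p = 0.786), so they did not part the groups. With the controls as a covariate in limma the Wfikkn2 difference was -0.04 ± 0.16 (SE, adjusted p = 0.945).

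For Fst and Fstl1 the relation with the controls did not pass. Fst had r of 0.04 and rho of 0.15 with them (permutation p = 0.912 and 0.681, adjusted 0.912 and 0.786), although r was 0.63 without Floxed_Mstn 3 and 1. Fstl1 had r of -0.38 and rho of -0.42 (permutation p = 0.274 and 0.232, adjusted 0.423 and 0.370), and r of 0.16 without those arrays. With group means removed, Fstl1 had r of -0.52 and rho of -0.52, and Fst had r of 0.18 and rho of 0.28. With the controls as a covariate the differences were -0.63 ± 0.17 for Fst (limma adjusted p = 0.162) and -0.50 ± 0.12 for Fstl1 (SE, adjusted p = 0.136), about as large as without it. The remaining relations were those of Wfikkn2 with Fst (r -0.08, rho -0.10, permutation p = 0.828 and 0.786, adjusted 0.912 and 0.786, r 0.41 without 2 arrays) and with Fstl1 (r 0.37, rho 0.41, permutation p = 0.282 and 0.246, adjusted 0.423 and 0.370, r 0.05 without 2 arrays).

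**Figure D2:**
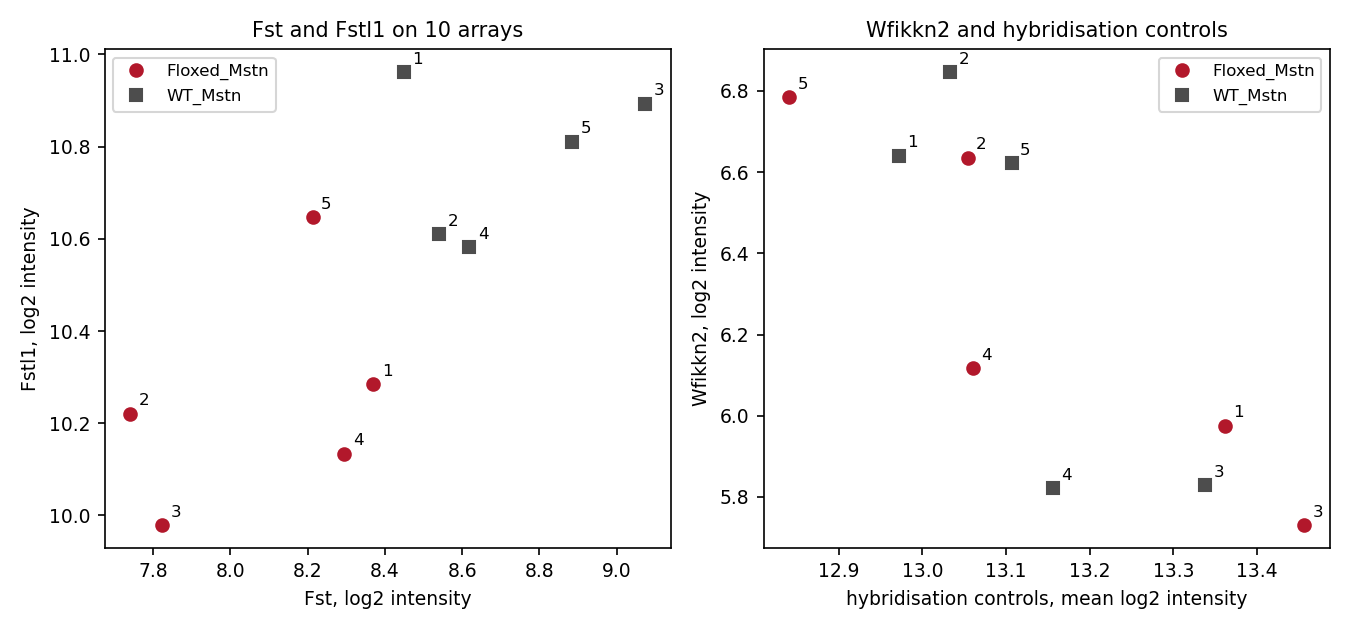
Left, log2 intensity of Fstl1 against that of Fst on the 10 arrays, and right, log2 intensity of Wfikkn2 against the mean log2 intensity of the hybridisation controls, with Floxed_Mstn as red circles, WT_Mstn as grey squares and the replicate number beside each point. On the left the groups separate along Fst with r of 0.35 once group means are removed, and on the right Wfikkn2 is lower where the controls are higher (r of -0.83) in both groups.

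The genes whose log2 intensity varied most like each tested member were taken by Pearson's r over the 10 arrays after removal of group means, among 10274 named genes. They were chosen for their high r among many genes on few arrays, so no p is given and no link to the members was tested. For Fst these were Cd47, a cell surface protein that inhibits phagocytosis (r = 0.95), Lrp4, the agrin receptor of the neuromuscular junction (0.94), Marcks, a protein kinase C substrate (0.93), Tram1, of the endoplasmic reticulum translocon (0.92), and Rnf26, a ubiquitin ligase (0.92). For Fstl1 they were Arpc2, an actin-nucleating complex subunit (0.96), Ptgfrn, a tetraspanin partner (0.94), Cnnm4, a magnesium transporter (0.93), Pde1c, a phosphodiesterase (0.93), and Fn1, fibronectin (0.91). Fn1 had a difference of -0.53 (limma adjusted p = 0.535). Among the genes most like Wfikkn2, Olfml2b had -0.78 (limma adjusted p = 0.581) and Tbc1d8 had 0.50 (adjusted p = 0.557).

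For Wfikkn2 they were the RNA helicase Ddx5 (0.98), the histone demethylase Kdm3b (0.98), Tbc1d8 (0.97), Olfml2b (0.96) and the telomere protein Tinf2 (0.95). These 5 genes correlated negatively with the hybridisation controls, with r from -0.81 for Ddx5 to -0.58 for Tbc1d8. The genes most like Fstl1 did so too, with r from -0.53 for Cnnm4 to -0.45 for Fn1, while those most like Fst had r from -0.07 for Rnf26 to 0.19 for Marcks. Each gene was chosen for its likeness to a member, so its r with the controls largely follows from that member's. These values are therefore not separate evidence of a relation with the controls.

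The rest of the pathway and its relatives were described with 7 lists holding 69 genes, of which 66 were annotated and 48 tested. The lists include proteins that only share a follistatin or Kazal-like module and antagonists of BMPs. Their totals are therefore not those of the myostatin pathway alone. Of these 48, 36 had lower and 12 had higher values in Floxed_Mstn muscle (lower values were seen for 51.5% of all genes), with a median difference of -0.23, against -0.0049 over all 10704 genes by their brightest probe set. By limma 0 of the 48 were called, against 0.131% of all genes. At an unadjusted p under 0.05, 10 were lower (20.8%) and 1 was higher, against 5.02% lower and 3.89% higher over all genes. The median difference by list ran from -0.52 for proteases to 0.04 for ligands, with -0.02 for receptors and -0.04 for Smads and repressors.

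Among other proteins with follistatin or Kazal-like modules, 9 of the 11 tested had lower and 2 had higher values, with a median of -0.26 and 0 called. At an unadjusted p under 0.05, 4 were lower. Htra1, a secreted serine protease, had mean log2 intensities of 10.86 ± 0.13 in Floxed_Mstn and 11.43 ± 0.20 in WT_Mstn (SD, n = 5 each), a difference of -0.56 (limma adjusted p = 0.137). Sparc, the collagen-binding osteonectin, had 12.95 ± 0.08 in Floxed_Mstn and 13.30 ± 0.09 in WT_Mstn (SD, n = 5 each), a difference of -0.35 (limma adjusted p = 0.164). Igfbp7, a secreted protein that binds insulin-like growth factors weakly, differed by -0.37 (limma adjusted p = 0.320). The groups did not overlap for these 3 genes, which held for 1.31% of all genes with Floxed_Mstn lower. Fstl4, Fstl5, Smoc1, Spock1 and Spock3 lay under the filter.

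Other proteins reported to bind myostatin or its precursor all had lower values, 5 of 5 with a median of -0.19, with 0 called and 1 at an unadjusted p under 0.05. Fmod, the matrix proteoglycan fibromodulin, which is also on the tendon list, had a difference of -0.50 (limma adjusted p = 0.469). Ltbp3, a latent TGF-beta binding protein, had -0.10 (adjusted p = 0.782), though a dimmer probe set gave -0.40 (adjusted p = 0.406). Hspg2, the basement membrane proteoglycan perlecan, had -0.19 (adjusted p = 0.815), and its dimmer probe set gave -0.54 (adjusted p = 0.606).

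Of the 10 ligands listed for the activin and myostatin branch, only Inhbb and Nodal passed the filter. Inhbb, the beta B chain of activins, had 6.24 ± 0.37 in Floxed_Mstn and 5.87 ± 0.42 in WT_Mstn (log2 intensity, SD, n = 5 each), a difference of 0.37 (limma adjusted p = 0.794). Nodal had -0.29 (limma adjusted p = 0.852). Gdf11, Inhba, Inhbc, Inhbe, Inha and Gdf3 lay under the filter, and Mstn and Gdf1 have no probe set of that name. The ligand side of the pathway was therefore mostly too dim to test.

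Among receptors, 6 of 11 had lower and 5 had higher values, with a median of -0.02 and 0 called. Acvr1, a type I receptor used by BMPs, had log2 means of 8.37 ± 0.31 in Floxed_Mstn and 8.92 ± 0.10 in WT_Mstn (SD, n = 5 each), a difference of -0.54 (limma adjusted p = 0.331), though a dimmer probe set gave 0.14. Tgfbr1, a type I receptor that also serves myostatin, had 10.48 ± 0.10 in Floxed_Mstn and 10.22 ± 0.14 in WT_Mstn (SD, n = 5 each), a difference of 0.26 (adjusted p = 0.488). Acvr2a, a type II activin receptor, had 0.22 (adjusted p = 0.660). At an unadjusted p under 0.05, 1 receptor was lower and 1 was higher.

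Of the proteases that process precursors of this family, 4 of 5 had lower values and 1 a higher one, with a median of -0.52, 0 called and 2 lower at an unadjusted p under 0.05. Pcsk6, a proprotein convertase, had -0.60 (limma adjusted p = 0.547), Bmp1, a metalloprotease that frees latent myostatin, had -0.52 (adjusted p = 0.621) and Pcsk5 had -0.55 (adjusted p = 0.762). Furin, the ubiquitous convertase of the family, had 0.0059 and is named after its value was seen. Dimmer probe sets gave 0.16 for Pcsk5 and -0.15 for Bmp1.

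Of the Smad transducers and feedback repressors, 6 of 9 had lower and 3 had higher values, with a median of -0.04 and 0 called. Skil, a repressor of Smad transcription that is itself a Smad target, had 10.11 ± 0.14 in Floxed_Mstn and 10.59 ± 0.22 in WT_Mstn (log2 intensity, SD, n = 5 each), a difference of -0.48 (limma adjusted p = 0.285). Smad7, the inhibitory Smad induced by the pathway, had 8.49 ± 0.21 in Floxed_Mstn and 8.84 ± 0.12 in WT_Mstn (SD, n = 5 each), a difference of -0.35 (adjusted p = 0.469), while its other probe set gave -0.05. Smurf1, a ubiquitin ligase that targets Smads, had 0.10 (adjusted p = 0.954). Skil and Smad7 were the members of this list with an unadjusted p under 0.05, both lower.

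Secreted BMP antagonists, which trap a neighbouring branch of ligands, had lower values for 5 of 5 tested genes, with a median of -0.47, 0 called and 0 at an unadjusted p under 0.05. Sostdc1 had -0.47 (limma adjusted p = 0.707), Nbl1 had -0.53 (adjusted p = 0.709) and Chrdl1 had -1.05 (adjusted p = 0.720), though dimmer probe sets gave -0.16 and -0.34. Chrdl1 ranged from 3.14 to 6.14 in Floxed_Mstn and from 5.29 to 6.52 in WT_Mstn (log2 intensity). The groups overlapped for all of these genes.

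**Figure D3:**
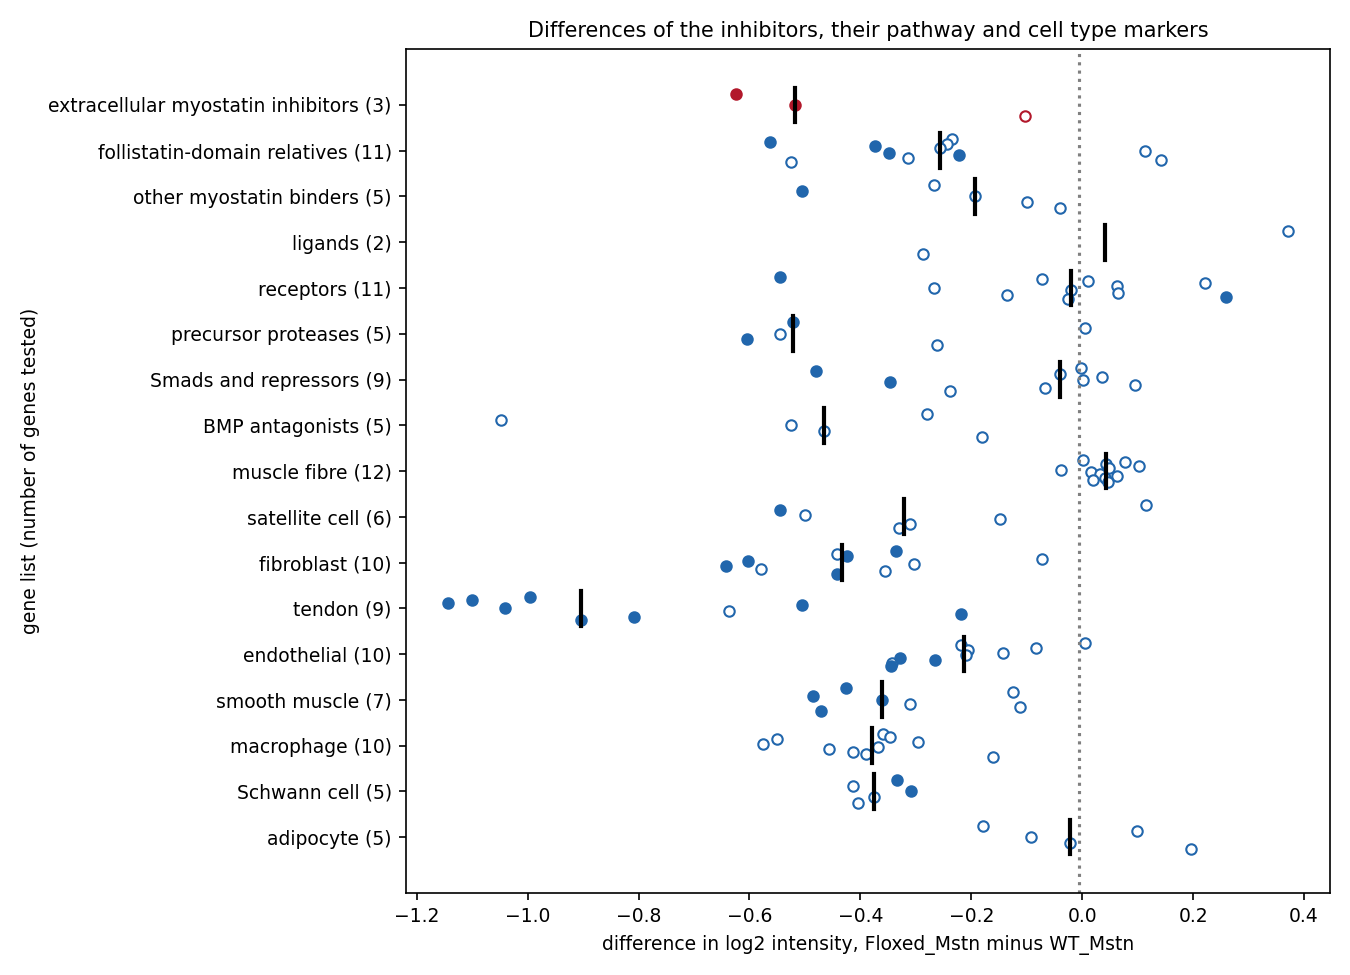
Difference in log2 intensity, Floxed_Mstn minus WT_Mstn (x axis), of each tested gene by its brightest probe set, for the inhibitors (red), 7 pathway lists and 9 marker lists (blue), with filled points at an unadjusted p under 0.05, black bars at list medians and a dotted line at the median of all genes. Fst and Fstl1 lie at -0.62 and -0.52. Medians of the markers of other cell types run from -0.90 (tendon) to -0.02 (adipocyte), with -0.43 for fibroblast, -0.38 for macrophage and -0.36 for smooth muscle markers. Muscle fibre markers, near the top of the intensity scale, have a median near 0.04.

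The labelled tissue was checked with skeletal muscle fibre markers, whose log2 mean over the 12 genes ran from 15.08 to 15.15 in Floxed_Mstn and from 15.06 to 15.11 in WT_Mstn, near the top of the scale. Of these 12, 11 had higher and 1 had lower values in Floxed_Mstn, with a median of 0.04 and 0 at an unadjusted p under 0.05. Markers of other cell types were also present, and those of most types had lower values in Floxed_Mstn muscle, as Fst and Fstl1 had. Fibroblast markers had lower values for 10 of 10 genes, and their summed intensity ran from 6408 to 10767 in Floxed_Mstn and from 8955 to 12629 in WT_Mstn. Tendon markers were lower for 9 of 9 genes, with sums from 15491 to 30915 in Floxed_Mstn and from 29385 to 36188 in WT_Mstn. All sums given for markers are of linear intensity and are weighted to the brightest genes. For tendon that is Fmod, with log2 means of 14.15 in Floxed_Mstn and 14.65 in WT_Mstn. At an unadjusted p under 0.05, 5 fibroblast and 8 tendon markers were lower, against 5.02% of all genes, and 0 of either list were called by limma.

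Smooth muscle markers were lower for 7 of 7 genes (sums 9232 to 10565 in Floxed_Mstn, 10662 to 12408 in WT_Mstn), macrophage markers for 10 of 10 (6337 to 11781 in Floxed_Mstn, 9132 to 13444 in WT_Mstn) and Schwann cell markers for 5 of 5 (6093 to 9690 in Floxed_Mstn, 7111 to 10970 in WT_Mstn). Endothelial markers were lower for 9 of 10 (4060 to 4486 in Floxed_Mstn, 4648 to 5598 in WT_Mstn), satellite cell markers for 5 of 6 (874 to 1158 in Floxed_Mstn, 1239 to 1449 in WT_Mstn) and adipocyte markers for 3 of 5 (33709 to 39529 in Floxed_Mstn, 34695 to 41416 in WT_Mstn). The adipocyte sum is mostly Fabp4 and Lpl, with log2 means of 14.01 and 14.14 in Floxed_Mstn and 14.11 and 14.16 in WT_Mstn. At an unadjusted p under 0.05, 4 smooth muscle, 3 endothelial, 2 Schwann cell, 1 satellite cell, 0 macrophage and 0 adipocyte markers were lower. None of their members was called by limma. The satellite cell, smooth muscle and endothelial sums did not overlap between groups, but the log2 means over their tested genes did. Those means were 6.65 to 7.14 in Floxed_Mstn and 7.04 to 7.36 in WT_Mstn for satellite cells. For smooth muscle they were 9.05 to 9.46 and 9.36 to 9.76, and for endothelial markers 8.29 to 8.46 and 8.38 to 8.73. The brightest satellite cell gene was Chodl, with log2 means of 9.05 in Floxed_Mstn and 9.59 in WT_Mstn. No intensity was at 0, since the processing leaves a floor. Cnn1, Calcr, Fgfr4 and Lep lay under the filter and are in the sums but not in the counts. In whole muscle, fewer cells of a type, less RNA per cell and a smaller share of the total RNA cannot be told apart. The part of these cells in the lower values of Fst and Fstl1 was not tested.

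The 3' to 5' balance of control probe sets, used here as a rough guide to RNA quality, also differed slightly for Gapdh. The 3' minus 5' difference of the Gapdh control probe sets was 0.45 ± 0.03 in Floxed_Mstn and 0.49 ± 0.03 in WT_Mstn (log2, SD, n = 5 each, exact permutation p = 0.0317, unadjusted). That of beta-actin was 1.40 ± 0.05 in Floxed_Mstn and 1.47 ± 0.06 in WT_Mstn (exact permutation p = 0.0873). RNA integrity itself was not measured here, and the part of this balance in the member differences was not tested.

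**Figure D4:**
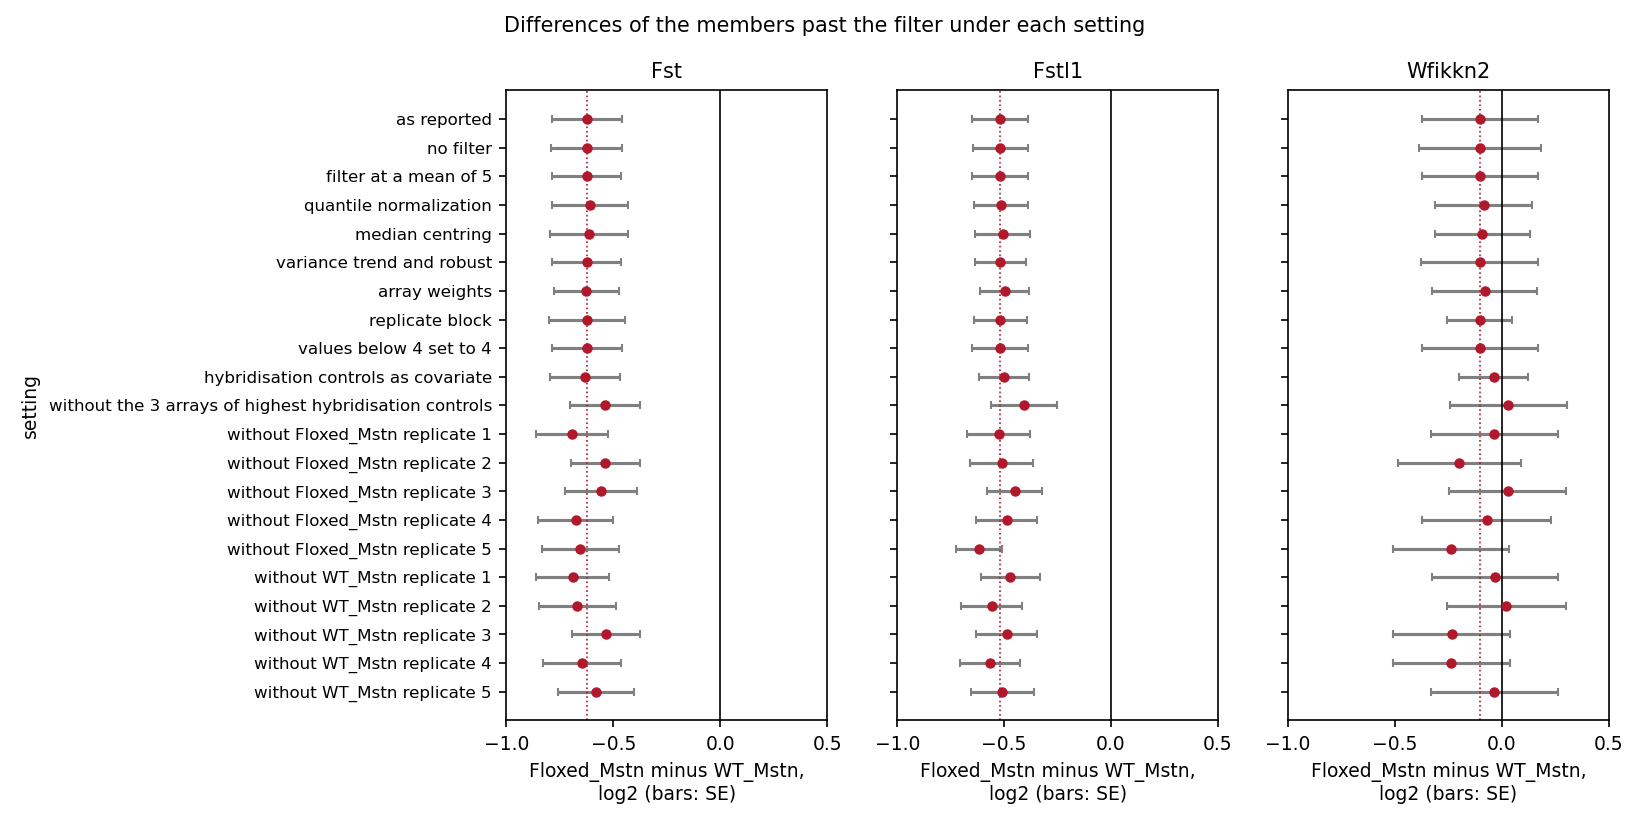
Difference in log2 intensity, Floxed_Mstn minus WT_Mstn (x axis, bars are the SE of each fit), of Fst, Fstl1 and Wfikkn2 under the settings that keep the brightest probe set (y axis), with a dotted line at the reported value. Fst stays between -0.69 and -0.53 and Fstl1 between -0.62 and -0.41 in the settings drawn, and Wfikkn2 lies on either side of 0. Other probe sets are not drawn: for Fst they gave 0.0076 (1421365_at) and -0.31 (mean of both).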

How the data were processed

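Each array has a linear intensity per probe set in the deposited table, which the authors made with GCRMA, per the submitters' processing notes; its version is not given in the sources used here. Of 45101 probe sets, 34958 carried 1 gene symbol in the platform annotation, 932 had more than 1 and 9211 had no entry. Only those with 1 symbol were used for named genes. The log2 of the deposited intensity was tested with limma 3.58.1 in R 4.3.3 (lmFit, eBayes, two-sided) over the 21154 probe sets with a mean of 4 or more, without 64 control probe sets, and p was adjusted by Benjamini-Hochberg over all of them. A gene was represented by its brightest probe set. Exact permutation covered every assignment of arrays to groups, and relations used 100000 permutations. The fit was tested on simulated data.

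The members, lists, named-gene rules and alternatives were chosen with earlier results of these data known. Named genes were all members, the called and up to 3 lowest-p genes of each pathway list, and the 5 genes most alike to each tested member. The lists held 155 symbols with the members, of which 148 matched. Alternatives covered the filter, normalization, variance model, array weights, replicate block, floor, hybridisation controls, probe set and each array left out. Nothing states whether arrays came from separate litters or days. The p-values therefore measure the spread between these arrays, which may hold litter or day differences as well as differences between mice. No pair of arrays held identical values. Arrays have no read depth, so their number limits precision. Figures used matplotlib 3.10.9 in Python 3.11.15.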

Additional observations from a re-analysis of the deposited data

Results flagged for a closer look

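Of 86 groups of 5 arrays tested for an array far from the others of its group (member probe sets, named pathway genes and list means), 4 held one, where chance gives about 1 in 20, or 4.3. Fstl3 lay at 3.20 (log2 intensity) in Floxed_Mstn 5, against 2.65 to 2.71 in the other Floxed_Mstn arrays. Wfikkn1 lay at 2.59 in WT_Mstn 2, against 2.24 to 2.26 in the other WT_Mstn arrays. Both values are near the floor. The BMP antagonist Nbl1 lay at 7.03 in WT_Mstn 1, against 6.54 to 6.58 in the other WT_Mstn arrays. The Schwann cell list mean was 8.68 in WT_Mstn 5, against 9.23 to 9.37 in the other WT_Mstn arrays. No array of Fst, Fstl1 or Wfikkn2 was far from its group by this test.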

How the results depend on the processing

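No member probe set was called under any of the 20 alternatives fitted across all probe sets. The adjusted p ran from 0.142 (array weights) to 0.999 (its dim probe set) for Fst and from 0.122 to 0.646 for Fstl1. Of the 23 alternatives, 17 could change the difference itself. It was negative in 16 of these for Fst, the exception being probe set 1421365_at (0.0076), and in 17 for Fstl1. The exact permutation test, unadjusted, put Fst (-0.62) and Fstl1 (-0.52) under 0.05. With each array left out the difference ran from -0.69 to -0.53 for Fst and from -0.62 to -0.45 for Fstl1. Wfikkn2 ran from -0.24 to 0.027, with a positive sign without WT_Mstn 2 (0.021) or Floxed_Mstn 3 (0.027), and was 0.030 without the 3 arrays of highest hybridisation controls. Wfikkn1 ran from -0.086 to 0.0022, and was 0.0022 without WT_Mstn 2, but these are values near the floor and not fold changes. With values below 4 set to 4, the Fstl3 difference became 0 by construction.

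Over the whole array, where 21 probe sets were called, 11 were called with no filter, 36 after quantile normalization, 67 with array weights and 58 with a robust fit and variance trend. The number was 99 with the hybridisation controls as covariate and 5 without 3 arrays. Each array left out gave 1 to 17: 14 and 17 without WT_Mstn 1 and Floxed_Mstn 5, and 1 to 3 without any of the other 8. No pathway or marker gene was called except Htra1 and Sparc (2 genes) with the variance trend and robust fit together. With the replicate block 1 probe set was called, and the adjusted p was 0.479 for Fst and 0.420 for Fstl1. Same-numbered arrays deviated with correlations of -0.51, 0.13, 0.62, -0.20 and 0.19, and 2 of 10 arrays matched their own number best, so the numbers were not taken to pair the mice. Except as stated, the cause of these changes was not tested. Signal near the floor limits Fstl3, Wfikkn1 and the ligands.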
